A study of Mus musculus with 6 samples.

Results

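Counts were examined for 10 genes of a mouse cell line, of 22753 gene identifiers in the deposited table: 7 lysosome and autophagy genes that lie outside the Ctsa locus (Idua, Npc1, Neu1, Psap, Ctsb, Ctsd and Sqstm1) and the genes that overlap Idua and Ctsb on the genome (Slc26a1, Dgkq and Fdft1). The genes were chosen from the same compound against DMSO comparison that is described here, so their changes are given as a description with no p-value, and nothing is supported with them. The cells were C2C12, mouse myoblasts that can become muscle or, with other signals, osteoblasts. In the compound group, 3 samples were grown for 2 days with 10 µM of a screening hit, a quinolinone with methyl groups and a phenylimidazole group (ru226 in the sample titles), and in the DMSO group 3 samples were grown for 2 days with the solvent, 1% of the medium. All came from 1 cell line without a genetic change named in the labels, and the comparison asks how the screening hit alters its transcripts.

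Lysosomes are acidic compartments that break down material from endocytosis and autophagy. Soluble hydrolases such as iduronidase, sialidase and the cathepsins do the cutting, activator proteins such as the saposins present lipids to them, and membrane proteins such as NPC1 export the products. Many lysosomal genes carry an E-box with the core CACGTG near their start, to which the transcription factor TFEB binds. Cholesterol leaves the lysosome through NPC1 and is made in the endoplasmic reticulum through squalene synthase, the product of Fdft1.

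Totals were 493406 to 542649 counts in the compound libraries and 566348 to 952813 in the DMSO libraries. They sum the rows of the table and are part of each library's depth. Where no read was counted, up to 3 counts are allowed, which is 5.53 to 6.08 CPM in compound libraries and 3.15 to 5.30 CPM in DMSO libraries, for counting error only. The table is unevenly filled: genes with an exon under an opposite-strand exon were 23.5% of its genes and held 91.82% of its counts. The labels speak of a TruSeq RNA v2 kit and of stranded libraries, but the strand setting of the counting is not given in the sources used here, so the reads of 2 genes on opposite strands cannot be told apart. Counts filed under Idua, Slc26a1, Fdft1, Dgkq, Npc1, Ctsb or Sqstm1 may therefore belong in part or in whole to the genes that overlap them. Every level and change below is one of counts filed under a gene name, not of that gene's transcript. DMSO replicate 3 had the largest total and lay farther from the other DMSO libraries (chi-square per degree of freedom 10.5 and 9.60) than these did from each other (1.88), a measure that grows with the total. Of 12 myoblast markers all had a count but only 4 a mean count of at least 10, with Chrnb1 the highest. Their sum was 309 to 372 CPM in compound and 277 to 353 CPM in DMSO libraries, 42.5% of it under Chrnb1. Of 10 muscle fibre markers 9 had a count and 3 a mean count of at least 10. Of 9 osteoblast markers 5 had a count, and only Runx2 a mean count of at least 10. Summed, they stood at 48.7 to 67.5 CPM in compound and 52.9 to 79.8 CPM in DMSO libraries, 82.4% of it under Runx2. Of 7 adipocyte markers 6 had a count, with 89.6% of the sum under Lipe. Of 6 endothelial markers 5 had a count and 0 a mean count of at least 10. The osteoblast markers Sp7, Bglap, Ibsp and Dlx5 were at 0, as were the macrophage markers Itgam, Tyrobp, Laptm5 and Lyz2. Summed macrophage markers stood at 403 to 523 CPM in compound and 477 to 612 CPM in DMSO libraries, above the myoblast sums. Of this, 97.4% was under Csf1r, which is overlapped by Hmgxb3. In bulk samples, fewer cells of a type and less RNA per cell cannot be told apart.

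Of the 10 genes, 9 had enough counts to be tested across the whole table, and 6 of these were called higher with the compound and 0 lower at an adjusted p under 0.05; among all 2440 tested genes 18.0% were called, 7.50% higher and 10.5% lower. Because this contrast chose the genes, nothing is read from the count. The 6 were Idua, Fdft1, Npc1, Dgkq, Neu1 and Psap. Sqstm1 and Ctsb were not called and had lower means with the compound, Slc26a1 had near-equal means, and Ctsd was not tested. Compound and DMSO libraries did not overlap for 7 of the 9 tested genes, 6 higher and 1 lower, where 36.4% of all tested genes did not overlap (17.2% higher, 19.2% lower). In the authors' deposited table, 7 of the 10 genes, the same 6 and Ctsd, were higher with an adjusted p under 0.05, where 13.1% of 4542 genes with an adjusted p were called in either direction.

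**Figure D1:**
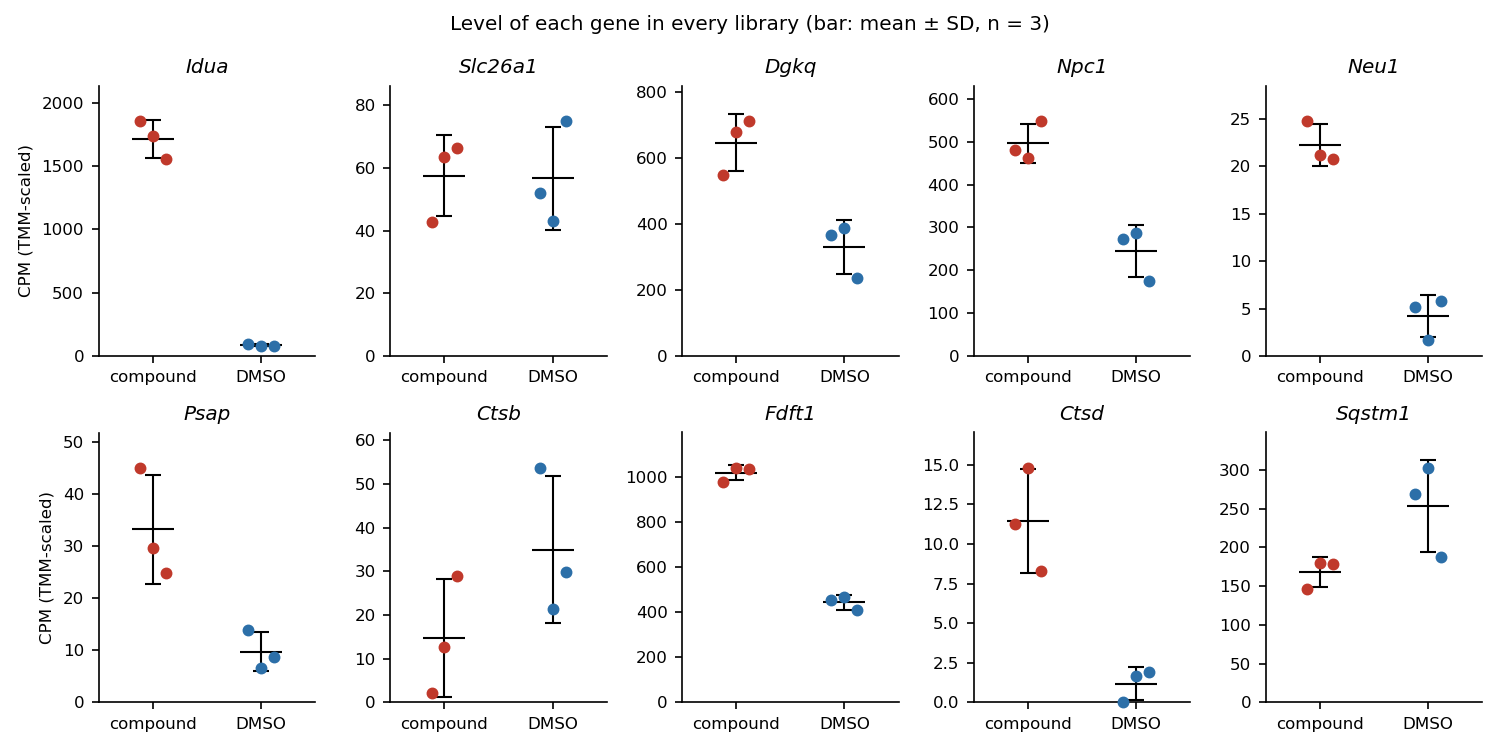
Level of each of the 10 genes (CPM, TMM-scaled) in the 3 compound libraries (red) and the 3 DMSO libraries (blue), with mean and SD as black bars. For Idua the compound libraries lie between 1554 and 1853 CPM and the DMSO libraries between 76.8 and 93.7 CPM, while for Slc26a1 and Ctsb the groups overlap.

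The genes fell into 2 kinds by their place on the genome; overlap was part of the choice only at Idua and Ctsb. For 7 of them (Idua, Slc26a1, Dgkq, Npc1, Ctsb, Fdft1 and Sqstm1) exons of an opposite-strand gene overlapped their own in GENCODE M21, and their mean counts ran from 16 to 429 with a median of 201.5. For the other 3, Neu1, Psap and Ctsd, no such exon is annotated, and their mean counts were 6.83, 11.2 and 3.17. Over the whole table the median of the mean count was 2.50 for the 5348 genes with an opposite-strand exon and 0 for the 16506 without one. The 3 genes had more counts than most genes of their kind, whose upper quartile was 0.833. Because they were chosen from this contrast, nothing is read from this.

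Idua encodes alpha-L-iduronidase, which removes iduronic acid from dermatan and heparan sulfate. It lies on chromosome 5 (mm10), 108660331 to 108684557, on the plus strand. Its interval overlaps Dgkq over 9342 bp, from 108660331 to 108669672, and encloses the whole of Slc26a1, 5692 bp from 108669878 to 108675569; both are on the minus strand. Of its 4204 annotated exon bases, 124 overlap exons of Dgkq in 2 blocks and 141 overlap an exon of Slc26a1. The 141 bases, from 108670119 to 108670259, are a coding exon of Idua and lie in a non-coding stretch of the Slc26a1 exon. A read from these bases lies over exons of both genes, so where it was filed, if anywhere, depends on the strand setting of the counting. The first 30 of the 141 bases, chr5:108670119-108670148 in GRCm38, are shown as each strand reads them (GENCODE M21 transcripts).
Idua: ccccccactgcctcacgaccaggctgacca
Slc26a1: tggtcagcctggtcgtgaggcagtgggggg

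Counts under Idua were 823, 819 and 749 in compound replicates 1 to 3 and 54, 49 and 80 in DMSO replicates 1 to 3. These are 1853, 1733 and 1554 CPM with the compound, against 93.7, 81.1 and 76.8 CPM in DMSO. Each compound library lay far above each DMSO library, and the spread within a group was small beside the gap. The means were 1713 ± 150 CPM in compound and 83.8 ± 8.76 CPM in DMSO libraries (SD, n = 3 each), a log2 change of 4.36 ± 0.18 (SE). Slc26a1, the gene of a sulfate and oxalate transporter that sits inside Idua, did not share this pattern. It had 42.8, 63.5 and 66.4 CPM in compound libraries and 52.0, 43.0 and 74.9 CPM in DMSO libraries. The groups overlapped, with a log2 change of less than 0.01 in size ± 0.35 (SE).

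Dgkq encodes diacylglycerol kinase theta, which turns diacylglycerol into phosphatidic acid. Its interval (chromosome 5, 108646693 to 108669672, minus strand) overlaps Idua at its 5' side. At its 3' side it overlaps 1078 bp of Tmem175 as the table places it, a lysosomal potassium and proton channel gene on the plus strand. In GENCODE M21, where Tmem175 reaches further, Dgkq shares 2090 of its 7189 exon bases with it. Counts under Dgkq were 549, 679 and 712 CPM in compound libraries and 366, 389 and 237 CPM in DMSO libraries. All compound libraries stood above all DMSO libraries, and DMSO replicate 3 was the lowest. The log2 change was 0.98 ± 0.20 (SE), and 0.77 without DMSO replicate 3. Tmem175, which was not among the chosen genes, had 446, 415 and 434 CPM in compound libraries and 336, 256 and 227 CPM in DMSO libraries. It rose by 0.67 ± 0.19 (log2, SE; adjusted p = 0.0221 in edgeR's quasi-likelihood test), and the call was lost with no filter and without DMSO replicate 2 or any 1 compound library (adjusted p up to 0.0914).

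**Figure D2:**
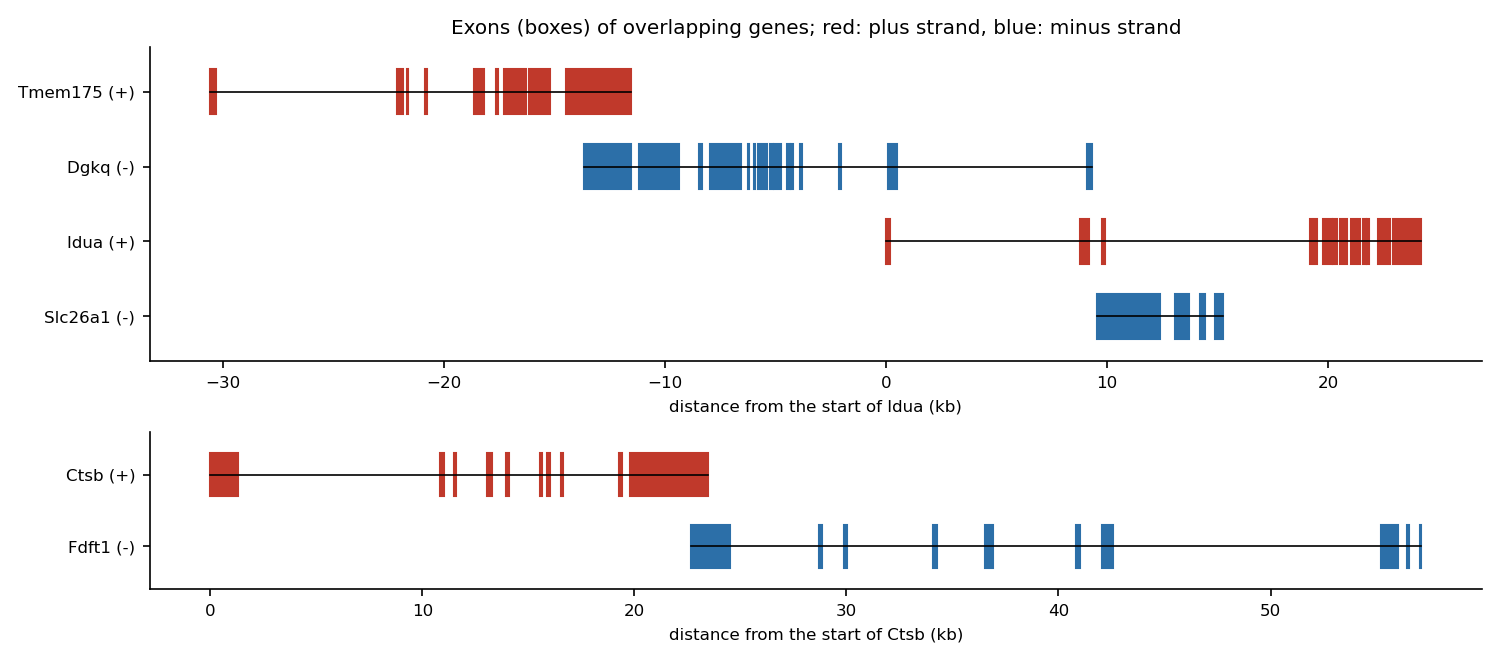
Exons (boxes) of the genes at the Idua and Ctsb loci along the distance in kb from the start of Idua (top) and of Ctsb (bottom), red for the plus and blue for the minus strand. Slc26a1 lies wholly inside the Idua interval, Dgkq crosses the 5' end of Idua and shares 2090 exon bases with Tmem175, and Ctsb and Fdft1 meet tail to tail over 774 bases.

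The share of counts filed under Idua among the counts of Idua, Slc26a1 and Dgkq does not depend on how libraries are scaled, and its intervals cover counting error only. It was 75.8%, 70.0% and 66.6% in compound replicates 1 to 3, with 95% Wilson intervals between 63.8% and 78.2%. In DMSO replicates 1 to 3 it was 18.3%, 15.8% and 19.8%, with intervals between 12.2% and 23.9%. The groups did not overlap, which is a description, since Idua was chosen from this contrast. For Dgkq among Dgkq and Tmem175 the share was 55.2% to 62.1% in compound and 51.1% to 60.3% in DMSO libraries, and the groups overlapped.

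Npc1 encodes the membrane protein that moves cholesterol out of the lysosome. It lies on chromosome 18, 12189693 to 12236400, on the minus strand, and its 3' end overlaps 305 bp of 3110002H16Rik as the table places it. GENCODE M21 calls this identifier Rmc1, a gene whose protein joins the Mon1-Ccz1 complex that acts on Rab7 at late endosomes, and gives an exon overlap of 511 bases. It also annotates the antisense RNA Gm15956 over 90 exon bases of Npc1, which is not a row of the table. Npc1 had 480, 461 and 548 CPM in compound libraries and 272, 288 and 176 CPM in DMSO libraries. The groups did not overlap and DMSO replicate 3 was again the lowest. The log2 change was 1.03 ± 0.20 (SE), and 0.82 without that library. The counts under 3110002H16Rik were 412, 358 and 407 CPM with the compound and 225, 210 and 216 CPM in DMSO, and rose by 0.85 ± 0.17 (log2, SE; edgeR adjusted p = 0.00311). Npc1 took 53.8% to 57.4% of the pair's counts in compound libraries and 44.9% to 57.8% in DMSO libraries, so the share overlapped between the groups while both genes were higher.

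Neu1, Psap and Ctsd have no annotated exon on the opposite strand, and their counts are few. Genes of this kind were 72.54% of the table and held 6.92% of its counts, and whether the few reads filed under them come from their own transcripts was not tested. Neu1 encodes the lysosomal sialidase, which works in a complex with cathepsin A, and lies on chromosome 17, 34931253 to 34935953, plus strand; no other row of the table overlaps it. It had 11, 10 and 10 counts in compound libraries and 3, 1 and 6 in DMSO libraries. The compound libraries were all higher, at 22.2 ± 2.21 CPM against 4.21 ± 2.23 CPM in DMSO libraries (SD, n = 3 each), with a log2 change of 2.27 ± 0.58 (SE). Psap encodes prosaposin, the precursor of the 4 saposins that help hydrolases reach sphingolipids, and lies on chromosome 10, 60277627 to 60302597, plus strand, again with no overlapping row. Its counts were 20, 14 and 12 with the compound and 8, 4 and 9 in DMSO, or 33.2 ± 10.5 CPM with the compound and 9.71 ± 3.74 CPM in DMSO (SD, n = 3 each). The groups did not overlap, and the log2 change was 1.77 ± 0.48 (SE). Neu1 and Psap were no longer called when compound replicate 1, compound replicate 2 or DMSO replicate 2 was left out, and with DESeq2 in place of edgeR or with no filter on low counts. Both reached the filter's level in 3 compound and 0 DMSO libraries, so they were tested only through the group in which they were high.

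Ctsd encodes the aspartic protease cathepsin D. The table places it on chromosome 7, 142371148 to 142388038 (minus strand), which reaches 2606 bp into Ifitm10, a same-strand gene with 0 counts in all libraries. GENCODE M21 starts Ctsd at 142375911, outside Ifitm10, and annotates a same-strand gene, Gm49369, that shares 808 exon bases with it. Ctsd had 5, 7 and 4 counts in compound libraries and 0, 1 and 2 in DMSO libraries. All compound libraries were higher. Summed, these are 16 counts in compound and 3 in DMSO libraries, a ratio of 8.47 with an exact 95% interval from 2.43 to 45.4. The interval covers counting error only and leaves out the spread between libraries. Because Ctsd was chosen from this contrast, the interval is no test of a change. Ctsd did not pass the filter on low counts, and in the authors' deposited table its log2 fold change was 1.87 ± 0.58 (SE).

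The sequences before the RefSeq starts of Idua, Dgkq, Neu1, Psap and Ctsd are shown because counts under all 5 were higher with the compound and the E-box is the known mark of lysosomal promoters. Each is the 250 bases before the first start that the RefSeq table lists (GRCm38.p6), read 5' to 3' on the gene's strand, with CACGTG in capitals: chr5:108660081-108660330 for Idua, chr5:108660831-108661080 for Dgkq, chr17:34931003-34931252 for Neu1, chr10:60277378-60277627 for Psap and chr7:142387828-142388077 for Ctsd. RefSeq starts Dgkq and Ctsd inside the intervals given above: the Dgkq window lies wholly within the Dgkq interval and within Idua, and most of the Ctsd window lies within the Ctsd interval.
Idua: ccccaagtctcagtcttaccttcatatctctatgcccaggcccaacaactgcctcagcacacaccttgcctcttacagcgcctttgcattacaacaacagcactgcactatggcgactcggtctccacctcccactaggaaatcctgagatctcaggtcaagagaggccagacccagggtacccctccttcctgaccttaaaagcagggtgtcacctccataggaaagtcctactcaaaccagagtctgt
Dgkq: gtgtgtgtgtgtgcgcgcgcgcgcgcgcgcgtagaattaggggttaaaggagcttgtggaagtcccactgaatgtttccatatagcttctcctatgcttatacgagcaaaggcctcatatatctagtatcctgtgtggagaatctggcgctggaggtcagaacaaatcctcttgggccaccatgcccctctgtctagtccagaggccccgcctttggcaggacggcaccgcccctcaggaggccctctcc
Neu1: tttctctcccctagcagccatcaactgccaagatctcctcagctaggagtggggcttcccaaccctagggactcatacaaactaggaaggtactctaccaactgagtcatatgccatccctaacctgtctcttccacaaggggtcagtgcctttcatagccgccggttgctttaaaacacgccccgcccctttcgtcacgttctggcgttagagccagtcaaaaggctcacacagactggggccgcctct
Psap: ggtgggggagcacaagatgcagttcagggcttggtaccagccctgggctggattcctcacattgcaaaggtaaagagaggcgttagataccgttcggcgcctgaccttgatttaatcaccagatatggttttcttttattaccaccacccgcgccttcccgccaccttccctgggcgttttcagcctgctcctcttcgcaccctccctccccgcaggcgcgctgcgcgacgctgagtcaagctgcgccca
Ctsd: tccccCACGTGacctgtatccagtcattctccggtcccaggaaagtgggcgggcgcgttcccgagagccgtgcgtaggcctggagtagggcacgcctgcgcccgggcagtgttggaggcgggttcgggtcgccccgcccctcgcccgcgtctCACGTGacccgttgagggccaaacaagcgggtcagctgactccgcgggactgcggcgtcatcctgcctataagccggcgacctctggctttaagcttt

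CACGTG reads the same on both strands and was found in 6.02% of 32851 such windows. Ctsd held 2 copies, whose first bases lie 245 and 98 bases before its RefSeq start; the nearer one is inside the interval that the table and GENCODE give Ctsd. None stood in the windows of Idua, Dgkq, Neu1 and Psap, in the second Psap window, or in that of Sqstm1, and of 2 windows of Slc26a1 1 held a copy, 47 bases before that RefSeq start and inside the Slc26a1 interval. Of the 10 genes 7 were matched in the RefSeq table; Npc1, Ctsb and Fdft1 were not. These are matches of letters in a short window and not shown to be binding sites.

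Ctsb and Fdft1 run towards each other on chromosome 14. Ctsb, the gene of the cysteine protease cathepsin B, spans 63122462 to 63145919 on the plus strand, and Fdft1, the squalene synthase gene, spans 63145153 to 63177793 on the minus strand. Their intervals in the table overlap by 767 bp and their annotated exons by 774 bases, from 63145150 to 63145923, coding in neither gene. Fdft1 had 979, 1041 and 1035 CPM in compound libraries and 454, 468 and 408 CPM in DMSO libraries. The groups were tight and far apart, and the log2 change was 1.20 ± 0.15 (SE). Ctsb had 1, 6 and 14 counts in compound libraries and 31, 13 and 31 in DMSO libraries. The groups met: compound replicate 3 stood at 29.0 CPM, above the 21.5 CPM of DMSO replicate 2. The log2 change of Ctsb was -1.21 ± 0.59 (SE), -2.17 without compound replicate 3 and -0.71 without compound replicate 1. Ctsb reached the filter's level in 1 compound and 3 DMSO libraries, so it was tested only through the group with the higher mean. Fdft1 held 97.3% to 99.8% of the pair's counts in compound libraries and 89.4% to 95.6% in DMSO libraries. The groups did not overlap, which is a description, since the pair was chosen from this contrast. The 95% Wilson intervals of compound replicate 3 (95.5% to 98.4%) and DMSO replicate 2 (92.6% to 97.4%) did overlap.

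Sqstm1 encodes p62, a receptor that carries ubiquitinated cargo into autophagosomes. It lies on chromosome 11, 50199366 to 50210827, minus strand, and overlaps 750 bp of 3010026O09Rik, which GENCODE M21 calls Mrnip, a partner of the MRN DNA repair complex. It had 146, 180 and 178 CPM in compound libraries and 269, 303 and 187 CPM in DMSO libraries. All compound libraries lay below all DMSO libraries, but DMSO replicate 3 only just above them. The log2 change was -0.58 ± 0.22 (SE) and was not called; without DMSO replicate 3 it was -0.77 and passed the threshold. 3010026O09Rik had 36.0, 40.2 and 31.1 CPM in compound and 41.6, 18.2 and 40.3 CPM in DMSO libraries, a log2 change of 0.08 ± 0.39 (SE; edgeR adjusted p = 0.908).

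**Figure D3:**
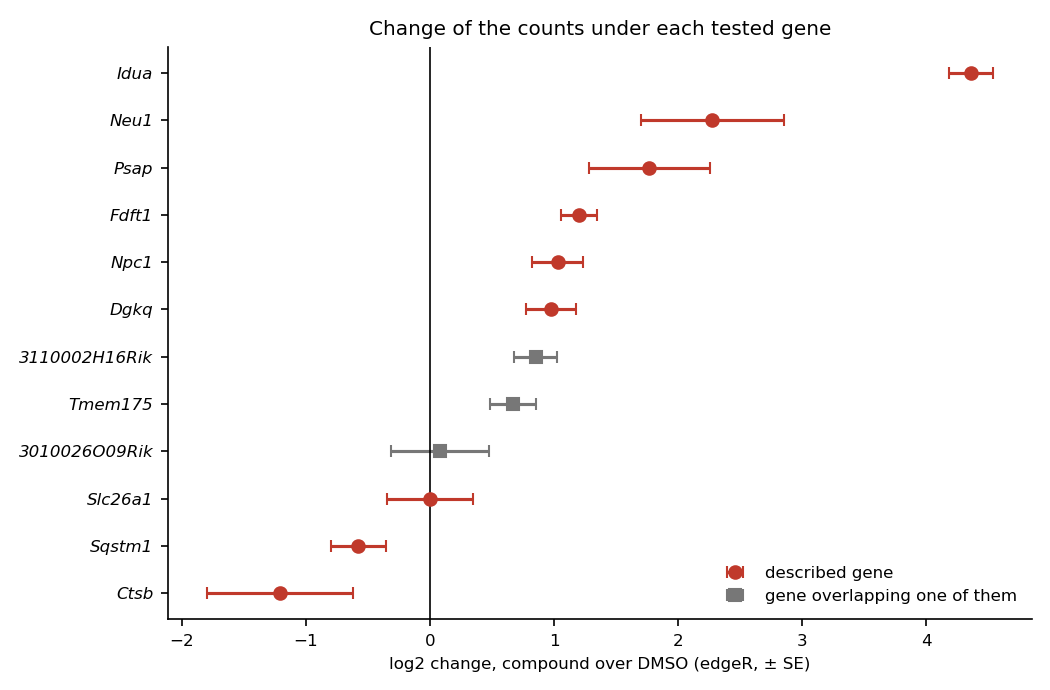
Log2 change of the counts under each tested gene, compound over DMSO, with its standard error, for 9 of the 10 genes (red circles) and for 3 genes that overlap them (grey squares). Idua stands far to the right at 4.36, Slc26a1 and 3010026O09Rik lie near 0, and Sqstm1 and Ctsb lie to the left; Ctsd was not tested.

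**Figure D4:**
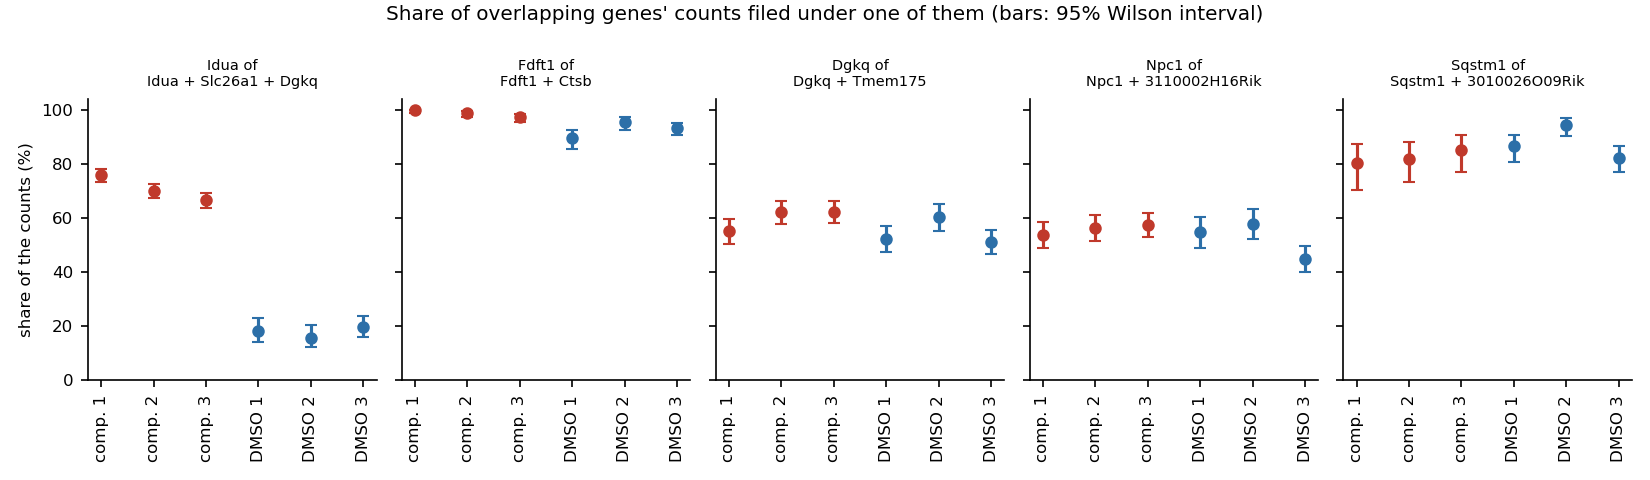
Share of the counts of overlapping genes that was filed under the gene named above each panel, in percent, for the 3 compound libraries (red) and the 3 DMSO libraries (blue), with 95% Wilson intervals. Idua and Fdft1 have groups whose shares do not overlap, though for Fdft1 the intervals of compound replicate 3 and DMSO replicate 2 do. Dgkq, Npc1 and Sqstm1 have groups whose shares overlap.

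Levels were compared between the genes per kb of annotated exon (CPM per kb), with the limits that the authors' annotation release is not given and that the length holds only for reads from the gene itself. Of the 4204 exon bases of Idua, 124 are shared with Dgkq and 141 with Slc26a1, and for reads from those genes the length of Idua would not apply. With the compound, Idua ranked first at 407 ± 35.8, before Fdft1 at 241 ± 8.06, Dgkq at 90.0 ± 11.9, Sqstm1 at 50.1 ± 5.65 and Npc1 at 43.8 ± 4.03 CPM per kb (SD, n = 3). Slc26a1 and Psap followed at 14.2 and 12.1, then Neu1 at 5.95, Ctsd at 4.87 and Ctsb at 2.42 CPM per kb. In this order the libraries of Sqstm1 and Npc1, of Slc26a1 and Psap, of Neu1 and Ctsd, and of Ctsd and Ctsb overlapped. In DMSO the order was Fdft1 at 105 ± 7.47, Sqstm1 at 75.4 ± 17.7, Dgkq at 46.0 ± 11.4, Npc1 at 21.7 ± 5.37 and Idua at 19.9 ± 2.08 CPM per kb. Slc26a1 at 14.0, Ctsb at 5.79, Psap at 3.54, Neu1 at 1.13 and Ctsd at 0.507 CPM per kb came after. Here Npc1 and Idua, Idua and Slc26a1, Ctsb and Psap, and Neu1 and Ctsd overlapped.

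The genes whose log2 CPM followed Idua most closely over the 6 libraries, among 1093 others with a mean count of at least 50, were Tstd2 (Pearson r = 0.999), the cathepsin A gene Ctsa (0.998) and Gm9817 (0.997). For Fdft1 they were Ctsa (0.999), Syn3 (0.998) and Tstd2 (0.995). The 6 points are 2 groups of 3 libraries, so these values describe how tightly compound and DMSO libraries separate and carry no test. Ctsa stood at 10767 ± 347 CPM in compound and 1802 ± 177 CPM in DMSO libraries (SD, n = 3 each), and its exons are overlapped by those of Pltp and Neurl2. The exons of Tstd2 are overlapped by those of Ncbp1 and Tmod1, those of Gm9817 by Hsp25-ps1 and those of Syn3 by Timp3. A high correlation does not mean a change of like size. Tstd2 stood at 5304 ± 129 CPM in compound and 1961 ± 37.2 CPM in DMSO libraries (SD, n = 3 each).

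The other genes of these pathways were taken from 12 lists of 271 genes in all. Most had few counts: 225 had a mean count under 10 and 45 of these had none. Beside the 10 genes, 34 listed genes were tested, of which 6 rose, 2 fell and 26 did not pass. That is 23.5% called, against 18.0% of all tested genes (7.50% higher and 10.5% lower). The median log2 change of the 34 genes was 0.18, where that of all tested genes was 0.02. Of those that rose, Cpq and Insig2 were tested only through the group in which they were high, and Tmem175 overlaps Dgkq. The lists were made with earlier results of these data known, so nothing is read from these values. Without DMSO replicate 2 or any 1 compound library, 4 of the listed genes were called in place of 8.

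Among lysosomal hydrolases and activators, 1 of 7 other tested genes rose and 0 fell, with a median log2 change of 0.24. It was Cpq, a carboxypeptidase gene overlapped by 4930592A05Rik, with 10, 11 and 10 counts in compound libraries and 5, 2 and 4 in DMSO libraries. It reached the filter's level in 3 compound and 0 DMSO libraries, so it could be tested only because it was high with the compound, and its call carries little weight. Its log2 change was 2.09 ± 0.57 (SE; edgeR adjusted p = 0.0194), and of the 6 libraries only DMSO replicate 1 could be left out without losing the call (adjusted p up to 0.116). It was also lost with DESeq2 (adjusted p = 0.0977) and with no filter (0.108). Of 3 other tested cathepsin genes, Ctsa rose and 2 did not pass. Among lysosomal membrane proteins, Tmem175 rose, 1 fell and 2 did not pass. The fall was under Cln3, the membrane protein gene of juvenile Batten disease, overlapped by Apobr. It had 39.1 ± 9.70 CPM in compound and 124 ± 26.8 CPM in DMSO libraries (SD, n = 3 each), or a log2 change of -1.67 ± 0.29 (SE; edgeR adjusted p = 0.000973).

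None of the 3 tested V-ATPase subunit genes, which acidify the lysosome, passed edgeR's test. Atp6v1g2, overlapped by Nfkbil1, had a log2 change of -0.40 ± 0.21 (SE; edgeR adjusted p = 0.223). Atp6v1c2, overlapped by Pdia6, had one of 0.28 ± 0.39 (SE; edgeR adjusted p = 0.677). Of 3 autophagy genes other than Sqstm1, 1 rose, Atg7, which activates ATG8 proteins for conjugation to lipid and has no annotated opposite-strand exon. It stood at 763 ± 95.2 CPM in compound and 506 ± 49.2 CPM in DMSO libraries (SD, n = 3 each), a log2 change of 0.60 ± 0.16 (SE; edgeR adjusted p = 0.0193). The call did not hold when compound replicate 2, compound replicate 3 or DMSO replicate 2 was left out, with an adjusted p of at most 0.130, nor with no filter (0.109). Of 5 lysosome regulators and sorting genes, 1 fell: Igf2r, the large mannose 6-phosphate receptor gene, had 9, 12 and 10 counts in compound libraries and 21, 20 and 103 in DMSO libraries. Its log2 change of -1.39 ± 0.46 (SE; edgeR adjusted p = 0.0483) was -0.65 without DMSO replicate 3, with an adjusted p of 0.375. The call was also lost without any 1 compound library, with DESeq2, with limma-voom and with the replicate block. It was lost in edgeR with other scalings too, at an adjusted p of 0.0503 with DESeq2 size factors and 0.0521 with upper quartiles.

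Of 4 cholesterol synthesis genes other than Fdft1, 1 rose. It was Insig2, whose protein holds the SREBP activator SCAP in the endoplasmic reticulum, with 33, 13 and 14 counts in compound libraries and 11, 5 and 14 in DMSO libraries. Insig2 reached the filter's level in 3 compound libraries and 1 DMSO library. In the main fit it was therefore tested only through the group in which it was high, and its call carries little weight. The log2 change was 1.66 ± 0.50 (SE; edgeR adjusted p = 0.0302), but 1.06 without compound replicate 1 (adjusted p = 0.216). It was not called without DMSO replicate 2, with DESeq2 or with limma-voom either. Among genes of sphingolipid and sialic acid breakdown, 1 of 5 rose and 4 did not pass. Gba2, a glucosylceramidase outside the lysosome whose exons are overlapped by Creb3 and Rgp1, stood at 399 ± 25.2 CPM in compound and 205 ± 58.7 CPM in DMSO libraries (SD, n = 3 each). Its log2 change was 0.98 ± 0.21 (SE; edgeR adjusted p = 0.00550). Among glycosaminoglycan breakdown genes beside Idua, none of the 2 tested passed. Gusb, the glucuronidase gene, stood at 30.6 ± 5.62 CPM in compound and 55.3 ± 18.6 CPM in DMSO libraries (SD, n = 3 each), with a log2 change of -0.87 ± 0.36 (SE; edgeR adjusted p = 0.114).

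**Figure D5:**
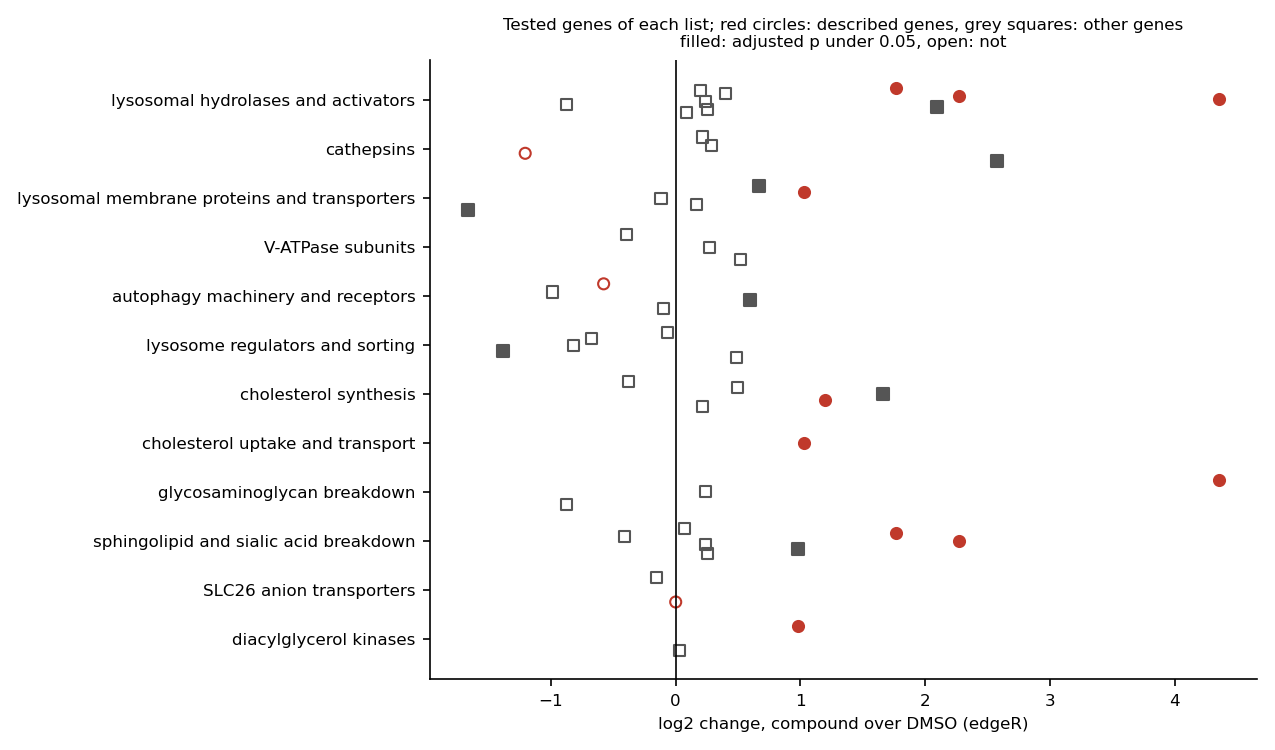
Log2 change, compound over DMSO, of every tested gene in the 12 lists; red circles are the genes described above and grey squares other genes, filled where the adjusted p was under 0.05. Filled squares lie on both sides of 0, and Idua lies apart at 4.36 in both lists that hold it.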

How the data were processed

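Poly-A RNA of 6 C2C12 samples (100 ng per sample) was sequenced, 3 with the compound and 3 with DMSO. Per the submitters' processing notes, STAR 2.3.0e and HTSeq 0.6.0 were used with mm10; no annotation release is stated. Raw read counts deposited by the authors per gene entered all tests; each of 930 identifiers repeated in the table was used once. Per the file headers the table also holds a normalised signal (count divided by a size factor) and the authors' log2 fold changes, their Wald score and p-values, which are quoted only as theirs.

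Genes, exons and strands came from GENCODE M21 (GRCm38, the mm10 assembly). Counts of all 22753 identifiers were filtered with filterByExpr, scaled by TMM and tested with edgeR 4.0.16 (R 4.3.3; quasi-likelihood F test, two-sided, Benjamini-Hochberg adjustment over 2440 tested genes, threshold 0.05). The SE of a log2 change is its size over the root of its F. CPM use TMM library sizes and are given as mean ± SD. The steps were tested on simulated counts. The labels state no pairing of the samples, so the fit has no block. The labels do not call the samples separate cultures; p-values then measure only their spread, which may be technical.

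Other settings tried were limma-voom (limma 3.58.1), DESeq2 1.42.0, size factors of DESeq2 or upper quartiles in place of TMM, no filter, a minimum mean count of 50, the replicate number as a block, and leaving out each library. The genes, the 12 lists and the naming rule were chosen with earlier results of these data known. The rule names the 10 genes, table genes overlapping them, per list up to 4 called others (else the 2 with most counts), and the 3 genes most like Idua and Fdft1 in log2 CPM (prior count 2). The E-box was one of several promoter motifs looked at, and it and the 250-base window were chosen after seeing the data; the 50 bases after the start, which the RefSeq table also holds, were left out, and Dgkq has a CACGTG there. Not every gene chosen this way is reported here. Of 271 listed symbols, 267 were in the table. Every column of per-sample values was mapped to a sample. Shares and figures were made in Python 3.11.15 with scipy 1.17.1, matplotlib 3.10.9, pandas 2.3.3 and numpy 2.4.6.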

Additional observations from a re-analysis of the deposited data

How the results depend on the processing

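Idua, Fdft1, Npc1 and Dgkq kept their direction and their side of the threshold under every alternative, and the direction of Neu1 and Psap held wherever they could be tested. Of the 10 genes, 6 were called, and 4 to 7 under the alternatives; the highest, without DMSO replicate 3, adds Sqstm1. The log2 change of Slc26a1 changed sign with DESeq2 (-0.0013), with limma-voom (-0.012), with no filter (-0.10) and in leave-one-out fits (-0.19 to 0.27). That of 3010026O09Rik changed sign with no filter (-0.021) and in leave-one-out fits (-0.22 to 0.25), that of Slc26a10 in leave-one-out fits (-0.45 to 0.05; 0.052 without compound replicate 2), and that of Dgkd with limma-voom (-0.023), with no filter (-0.076) and in leave-one-out fits (-0.10 to 0.26); none of these 4 was called under any alternative. Over all genes, 438 were called (183 higher, 255 lower). Leaving out 1 library gave 236 to 618, 93 to 259 higher and 143 to 359 lower, and DESeq2 called 121 higher. Of the listed genes, 8 were called; DESeq2, no filter and a mean count of at least 50 each gave 5, and leaving out 1 library 4 to 8. The causes were not tested, except that fewer genes are tested at a mean count of at least 50. With the replicate block 6 of the 10 genes and 7 listed genes were called (442 genes in all), and Igf2r was not (edgeR adjusted p = 0.0514). Same-numbered libraries correlated at -0.01 to 0.02 in their deviations from the group means, and other-numbered ones at -0.05 to 0.04. Counting noise pulls such values towards 0, so they cannot exclude a pairing. Median log2 changes moved by at most 0.02 between scalings. Ctsd, Neu1 and Psap rest on few counts, which limits the precision of their changes.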

Other observations

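No cholesterol uptake and transport gene beside Npc1 was tested: the 2 with the most counts were Lrp1, a lipoprotein receptor gene, at 14.2 ± 4.19 CPM in compound and 17.4 ± 7.58 CPM in DMSO libraries, and Nr1h3, a liver X receptor gene, at 8.55 ± 6.22 CPM in compound and 4.12 ± 0.98 CPM in DMSO libraries (SD, n = 3 each). Among SLC26 anion transporters beside Slc26a1, Slc26a10, overlapped by B4galnt1, had a log2 change of -0.16 ± 0.46 (SE; edgeR adjusted p = 0.848), and Slc26a6 had 4, 6 and 5 counts in compound and 3, 1 and 9 in DMSO libraries. Among diacylglycerol kinases beside Dgkq, Dgkd, overlapped by Usp40 and Gm19582, had a log2 change of 0.03 ± 0.32 (SE; edgeR adjusted p = 0.959), and Dgke had 0, 0 and 2 counts in compound and 0, 5 and 4 in DMSO libraries.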
